A study of Mus musculus with 8 samples.

Results

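The genes of the proteasome were followed in cultured mouse embryonic fibroblasts (MEFs), connective tissue cells grown from minced embryos, with and without the ubiquitin ligase gene Smurf2. They were taken by symbol: all genes whose symbol begins with Psma, Psmb, Psmc, Psmd, Psme or Psmg followed by a digit, apart from Psmb8, Psmb9 and Psmb10, which form the immunoproteasome and are given beside them. This rule found 46 of the 17501 genes measured. They were 14 genes of the core particle, 17 of the regulatory cap, 4 activators, 7 assembly factors and 2 core subunits of single tissues. The other 2, Psmc3ip and Psme3ip1, fit the symbol rule but encode no proteasome subunit, which leaves 44 proteasome genes.

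Smurf2-/- and wild-type MEFs came from mice of mixed 129SVJ and NIH Black Swiss descent (mixed BL) or from C57B6 mice. Each was profiled on an Affymetrix array at late passage (33 in mixed BL, 28 in C57B6) and at early passage (6 in mixed BL, 7 in C57B6). The 8 arrays therefore hold 1 array for every combination, with 4 at each level of genotype, passage class and background. The Smurf2-/- mixed BL cells came from a mix of 3 embryos, the wild-type mixed BL cells from a mix of 2, and the C57B6 cells of either genotype from 1 embryo. All the embryos are described as E14.5 in the sample descriptions but as day 11.5 in the growth protocol, and the labels do not settle the age. With 1 array per combination there are no replicate arrays, so p-values set a difference against what the model leaves unexplained. That is the unevenness of effects across the other factors together with noise, which may be technical. The labels do not say whether late and early arrays are passages of the same culture. They give the same embryo numbers for both, so the late and early arrays of a genotype and background may not be independent.

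The proteasome is the machine that degrades most ubiquitin-tagged proteins of the cell. Its core particle is a barrel of stacked rings: alpha subunits (Psma genes) form the gated ends, and beta subunits (Psmb genes) the chamber that holds the cutting sites. The cap on the barrel has a base, whose ATPases (Psmc genes) unfold the substrate, and a lid, whose deubiquitinase removes the ubiquitin chain. Activators (Psme genes) can take the place of the cap and open the gate, and dedicated chaperones (Psmg genes for the core, Psmd5, Psmd9 and Psmd10 for the cap base) assist assembly and then leave. Genes of the subunits are often expressed in step with each other.

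The targeted gene was checked first. Smurf2 stood at -1.19 and -0.70 in late and early Smurf2-/- mixed BL arrays and at -1.21 and -0.43 in late and early Smurf2-/- C57B6 arrays, against 0.43, 0.96, 0.64 and 0.71 in the wild-type arrays in the same order. These and all other levels are log2 differences from the gene's own median, which leaves no basis for ranking 1 gene's level against another's. Sex-linked genes parted the same arrays. Xist, the RNA of the inactive X chromosome, lay between -2.07 and -1.53 in Smurf2-/- arrays and between 1.53 and 3.20 in wild-type arrays, and the Y-linked Eif2s3y between 1.28 and 2.60 in Smurf2-/- arrays and between -1.37 and -1.28 in wild-type arrays. Genotype and the sex of the embryos cannot be told apart in any genotype difference given here. Nor can genotype be told apart from other differences between the embryos, as each genotype came from 1 embryo in C57B6 and from a mix of 3 or 2 in mixed BL. Because the values are centred, the identity of the cells could not be checked by the level of fibroblast markers. In bulk RNA, fewer cells of a type and less RNA per cell cannot be told apart.

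No proteasome gene passed the test for genotype, passage or background. What the data show is a set of small differences, most of them above 0 for genotype and for background and evenly split for passage. The early Smurf2-/- mixed BL array held the highest value of 23 of the 46 genes, and 40 of them lay above their median there. The late and early wild-type C57B6 arrays held the lowest value of 19 and 13 genes, with 41 and 40 below their median. The median over the 46 genes was 0.11 and 0.17 in late and early Smurf2-/- mixed BL and 0.11 and -0.09 in late and early Smurf2-/- C57B6. In the wild-type arrays it was 0.03 and 0.05 in late and early mixed BL and -0.15 and -0.14 in late and early C57B6. The median of all genes lay between -0.01 and 0.05 in each array.

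**Figure D1:**
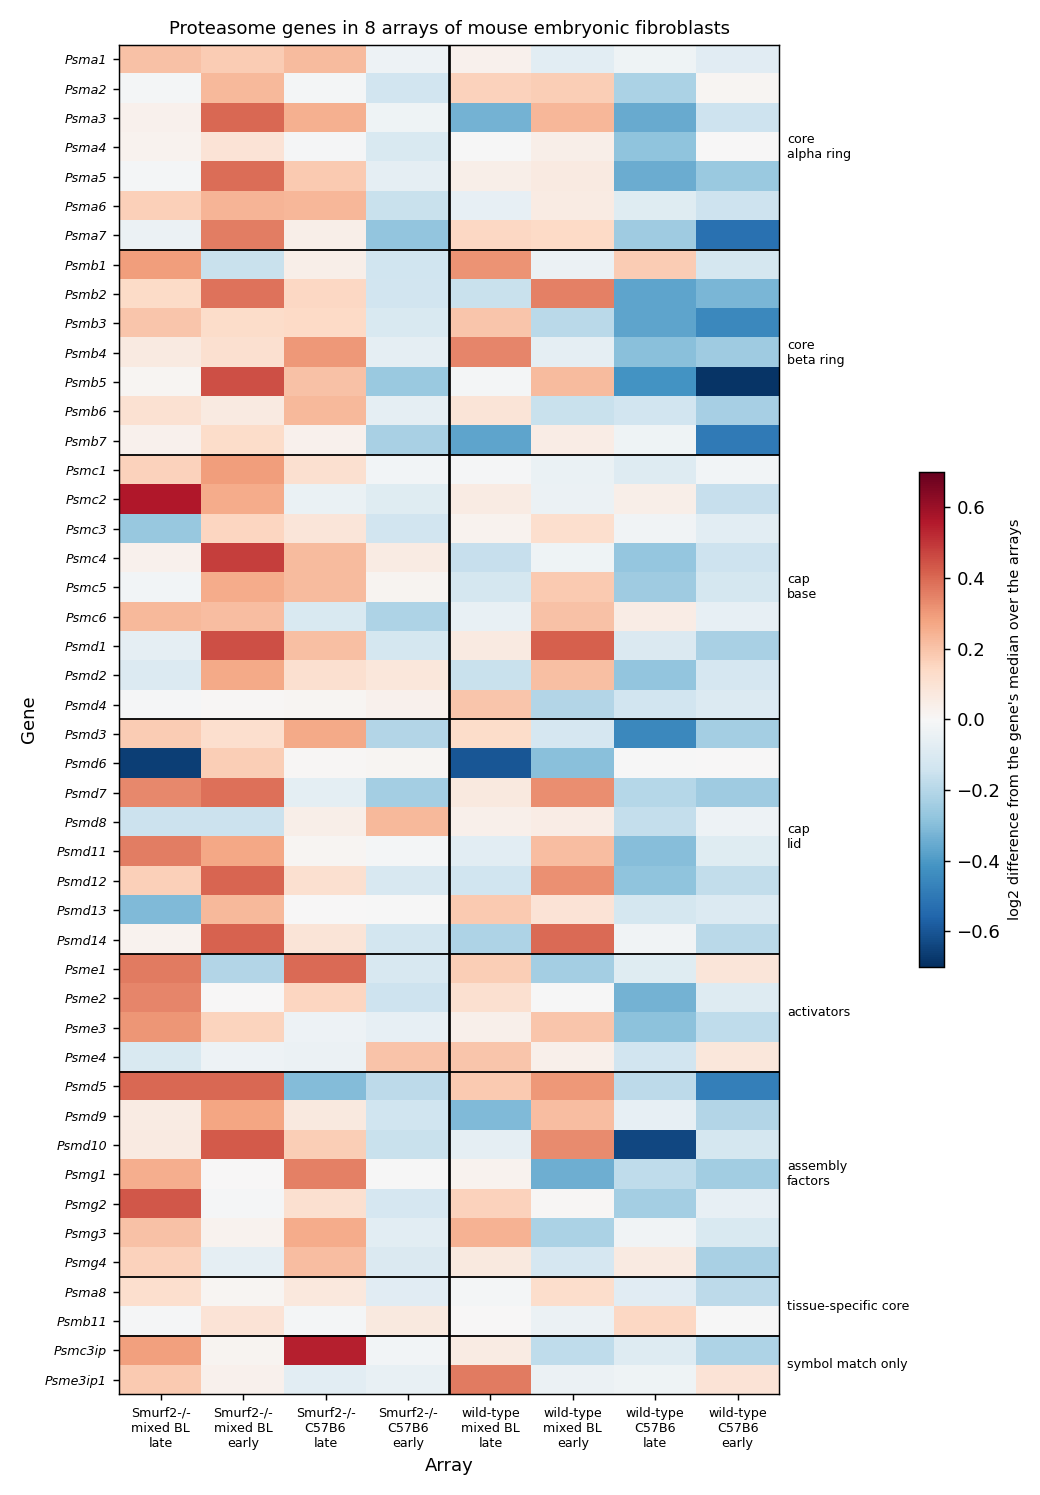
Level of each of the 46 genes (rows, by part of the proteasome) in each of the 8 arrays (columns), as the log2 difference from the gene's median over the arrays; the vertical line separates Smurf2-/- arrays on the left from wild-type arrays on the right. The early Smurf2-/- mixed BL column is mostly red (40 genes above their median) and both wild-type C57B6 columns are mostly blue (41 and 40 genes below it).

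The spread of the 46 genes over the 8 arrays was small, though above that of genes at large. Their standard deviation had a median of 0.20, against 0.18 for all genes, and their range a median of 0.63, against 0.54. The figures for all genes may include undetected genes, because no filter on expression was possible. Psmb11, a beta subunit known from the thymus, had the narrowest range, 0.18, and Psma8, an alpha subunit known from the testis, had a range of 0.30. Psmb5, which carries the chymotrypsin-like cutting site, had the widest at 1.14. For the 5 genes measured by more than 1 transcript cluster, the clusters of a gene differed by at most 0.22 in any array.

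Promoters of 38 of the 46 genes were found in a RefSeq table of GRCm38.p6, as 42 sequences of 300 bases that run from 250 bases before the start site to 50 after it. Shown as examples are those of Psmb5, with the widest range, Psmb6, which carries another cutting site of the core, and Psmg1, the proteasome gene with the smallest p for genotype. Capitals mark 1 motif in each sequence, and matches to the other motifs searched, such as GATGGC in Psmb5 and Psmb6, are left in lower case. In Psmb5 (chr14:54617946-54618245, minus strand) and Psmb6 (chr11:70525107-70525406, plus strand) they are a match to TGACNNNGC, the core letters of the antioxidant response element, whose first base lies at positions -47 and -9 from the start site. In Psmg1 (chr16:95990911-95991210, minus strand) they are CCGGAAG, the core letters of ETS family sites, with the first base at position -69. Each sequence is written along the gene's own strand.
Psmb5: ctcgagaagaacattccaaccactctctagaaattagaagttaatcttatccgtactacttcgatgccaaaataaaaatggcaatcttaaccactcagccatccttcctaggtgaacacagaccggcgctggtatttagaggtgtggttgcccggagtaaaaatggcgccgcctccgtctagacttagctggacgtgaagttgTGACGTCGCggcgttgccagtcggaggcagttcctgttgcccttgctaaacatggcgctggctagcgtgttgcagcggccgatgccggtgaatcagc
Psmb6: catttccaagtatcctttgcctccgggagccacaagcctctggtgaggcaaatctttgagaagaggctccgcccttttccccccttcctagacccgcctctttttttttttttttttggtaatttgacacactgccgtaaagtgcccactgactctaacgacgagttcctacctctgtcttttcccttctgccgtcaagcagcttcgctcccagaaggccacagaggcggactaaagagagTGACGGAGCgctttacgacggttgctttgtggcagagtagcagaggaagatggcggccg
Psmg1: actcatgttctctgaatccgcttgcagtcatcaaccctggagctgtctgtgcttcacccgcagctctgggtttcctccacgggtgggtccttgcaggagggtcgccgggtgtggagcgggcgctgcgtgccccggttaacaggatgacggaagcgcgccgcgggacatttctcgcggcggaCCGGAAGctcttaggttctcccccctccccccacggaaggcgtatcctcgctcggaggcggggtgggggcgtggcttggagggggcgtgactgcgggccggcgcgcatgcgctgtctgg

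A total of 8 motifs were searched on both strands and chosen with values of these genes known, so the matches are a description. The shares are of the 42 promoters that match the symbol rule, those of Psmc3ip and Psme3ip1 included, and of all 32851 promoters in the table. TGACNNNGC was in 14.3% of the 42 and in 12.4% of all, and Psmb5 and Psmb6 were among only 6 genes of the set that held it. CCGGAAG was in 40.5% and 8.86%, GATGGC in 28.6% and 14.1%, and CCAAT in 35.7% and 37.4%. CACGTG was in 9.52% and 7.15%, TGACTCA in 2.38% and 5.2%, GCCATTTTG in 2.38% and 0.569%, and GGCGGAAG, which shares its GGAAG with CCGGAAG, in 4.76% and 2.57%. The median GC content was 59.0% in the 42 and 52.7% in all.

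Smurf2-/- and wild-type arrays were compared over both backgrounds and passage classes. Limma called 0 of the 46 genes at an adjusted p under 0.05, where it called 0.0286% of all genes. These were 5 genes: Smurf2 itself, Xist and the Y-linked Uty, Kdm5d and Eif2s3y. At an unadjusted p under 0.05 limma found 8 of the 46 (17.4%), all higher in Smurf2-/-, against 7.55% of all genes. A total of 39 of the 46 lay higher in Smurf2-/- (84.8%, against 55.5% of all genes), with a median log2 difference of 0.15, against 0.02 for all genes. The difference was positive in all 4 matched pairs for 18 genes (39.1%, against 11.0% of all genes). The median over the 46 genes was 0.11 and 0.08 in the late and early mixed BL pairs and 0.28 and 0.09 in the late and early C57B6 pairs. It was 0.09 without the late Smurf2-/- C57B6 array.

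In the core particle 12 of 14 genes lay higher in Smurf2-/-, none called. The catalytic genes had the same sign in all 4 pairs. Psmb5 differed by 0.33 ± 0.18 (SE), Psmb6, which carries the caspase-like site, by 0.19 ± 0.07 and Psmb7, which carries the trypsin-like site, by 0.20 ± 0.15. Psmb5 stood at 0.01, 0.45, 0.21 and -0.26 in Smurf2-/- mixed BL late and early and C57B6 late and early, against -0.01, 0.22, -0.42 and -0.68 in the wild-type arrays in the same order. Its lowest values were those of wild-type C57B6, and the groups overlapped. The structural beta subunit gene Psmb3 differed by 0.29 ± 0.09, with a late mixed BL pair that was level at -0.00 and with 0.32, 0.51 and 0.34 in the other pairs. Among alpha ring genes Psma3 differed by 0.31 ± 0.14 and Psma1 by 0.18 ± 0.06, both in 4 of 4 pairs. The exceptions were Psmb1, a structural beta subunit gene lower in 4 of 4 pairs (-0.07 ± 0.06), and Psma2 at -0.01 ± 0.08. All adjusted p were 0.651 or above.

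In the cap 14 of 17 genes lay higher in Smurf2-/-, none called. Psmc4, an ATPase gene of the base, stood at 0.03, 0.48, 0.22 and 0.05 in Smurf2-/- mixed BL late and early and C57B6 late and early, against -0.16, -0.03, -0.27 and -0.14 in the wild-type arrays in the same order. It averaged 0.20 ± 0.21 in Smurf2-/- and -0.15 ± 0.10 in wild-type arrays (SD, n = 4 each), 1.27-fold apart, with a limma adjusted p of 0.651. It was the 1 proteasome gene whose genotypes did not overlap, which held for 2.17% of all genes. The ATPase gene Psmc1 differed by 0.18 ± 0.07, the lid gene Psmd3 by 0.26 ± 0.12 and Psmd11, a lid scaffold gene, by 0.22 ± 0.08. The ubiquitin receptor gene Psmd4 differed by 0.07 ± 0.09 and the deubiquitinase gene Psmd14 by 0.11 ± 0.15.

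Activators and assembly factors followed with small differences. Among activators, Psme1 and Psme2, the subunits of an interferon-induced ring, differed by 0.13 ± 0.13 and 0.16 ± 0.11 (SE), the nuclear activator gene Psme3 by 0.15 ± 0.07 and Psme4, which encodes a large nuclear activator, by -0.04 ± 0.10. All 7 assembly factor genes lay higher in Smurf2-/-, from 0.11 for Psmg4 to 0.34 for Psmg1. Psmg1, whose product pairs with that of Psmg2 to start the alpha ring, stood at 0.26, 0.00, 0.35 and -0.00 in Smurf2-/- mixed BL late and early and C57B6 late and early, against 0.02, -0.34, -0.18 and -0.24 in the wild-type arrays in the same order. Each Smurf2-/- array was above its partner by 0.23 to 0.53, while the late wild-type mixed BL array lay just above the early Smurf2-/- arrays. The difference was 0.34 ± 0.07 (SE, 1.26-fold, limma adjusted p = 0.651). Psmg2 and Psmg3 differed by 0.14 ± 0.11 and 0.13 ± 0.08, the cap chaperone genes Psmd5 and Psmd9 by 0.12 ± 0.09 and 0.15 ± 0.13, and the X-linked Psmd10 by 0.25 ± 0.16. Psmc3ip, a meiotic recombination gene caught by its symbol, differed by 0.31 ± 0.09, and the tissue-specific genes Psma8 and Psmb11 by 0.07 ± 0.07 and 0.01 ± 0.07.

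**Figure D2:**
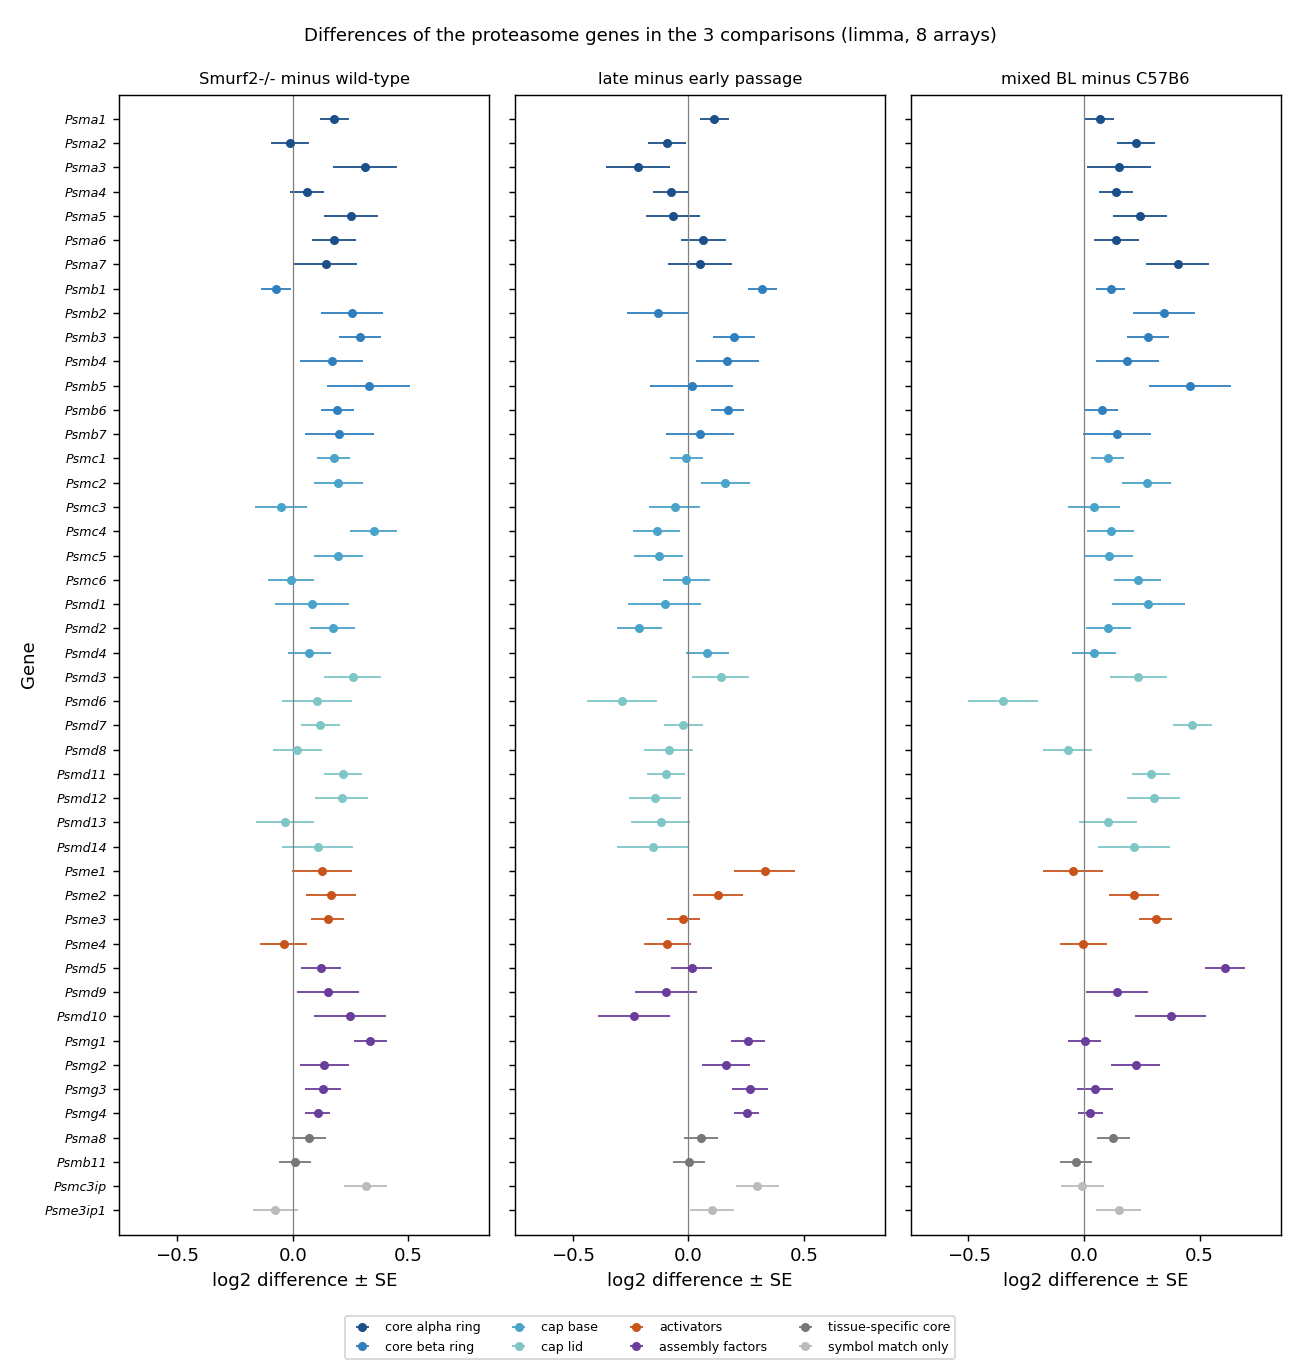
Log2 difference (points) and its standard error (bars) for each of the 46 genes in the limma fit over 8 arrays, for Smurf2-/- minus wild-type (left), late minus early passage (middle) and mixed BL minus C57B6 (right), coloured by part of the proteasome. For genotype 39 points and for background 40 points lie above 0, and for passage 23.

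The genotype difference was then read within each passage class. At late passage 38 of 46 genes lay higher in Smurf2-/- (82.6%, against 56.2% of all genes), with a median of 0.20, against 0.02 for all genes. At early passage 36 did (78.3%, against 50.7% of all genes), with a median of 0.11, against 0.00 for all genes. Limma called 0 of the 46 at either (0% of all genes at late and 0.00571% at early passage). At an unadjusted p under 0.05 it found 7 genes at late passage (15.2%, close to the 13.4% of all genes). At early passage it found 1, Psmg1 (2.17%, against 1.09% of all genes). Psmd11, which links the lid to the core, had the smallest late p. It stood at 0.36 and 0.02 in late Smurf2-/- mixed BL and C57B6 arrays, against -0.07 and -0.30 in the late wild-type arrays, a difference of 0.37 ± 0.08 (SE, limma adjusted p = 0.198). The others were Psma3 at 0.48 ± 0.19, Psmg1 at 0.38 ± 0.11, Psme2 at 0.35 ± 0.12, Psmg2 at 0.31 ± 0.12, Psme3 at 0.26 ± 0.09 and Psmc3ip at 0.43 ± 0.12. The late median was 0.09 without the late Smurf2-/- C57B6 array and 0.32 without the late Smurf2-/- mixed BL array. The early median was 0.03 without the early Smurf2-/- mixed BL array, 0.19 without the early Smurf2-/- C57B6 array and 0.05 without the early wild-type C57B6 array.

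The change of the genotype difference with passage, tested as an interaction, was called for 0 of the 46 genes and 0% of all genes. Its unadjusted p was under 0.05 for 1 gene (2.17%), against 5.35% of all genes. That gene was Psmd11, whose genotype difference was larger at late passage by 0.31 ± 0.12 (SE, adjusted p = 0.913), by 0.38 in mixed BL and 0.24 in C57B6. Interactions of the same sign and larger size, with a higher p, were those of Psmd10, Psme1, Psme2, Psmg2 and Psma3 at 0.43, 0.42, 0.38, 0.36 and 0.34. The median interaction over the 46 genes was 0.06 and ranged from -0.02 to 0.20 when single arrays were left out.

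Late and early passage were compared next, across genotypes and backgrounds. The parts of the proteasome did not share a direction. Of the 46 genes 23 lay higher and 23 lower at late passage, with a median of -0.00, against 57.5% higher and a median of 0.03 for all genes. Limma called 0 of the 46, where it called 0.0171% of all genes. It found 6 of them (13%) at an unadjusted p under 0.05, against 17.3% of all genes. All 6 were higher at late passage: Psmb1, Psmg4, Psmg1, Psmg3, Psme1 and Psmc3ip.

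Psmb1 had the smallest p for passage. It stood at 0.30 and 0.04 in late Smurf2-/- mixed BL and C57B6 and at 0.31 and 0.18 in late wild-type mixed BL and C57B6, against -0.16, -0.14, -0.04 and -0.12 in the early arrays in the same order. Late arrays averaged 0.21 ± 0.13 and early arrays -0.11 ± 0.05 (SD, n = 4 each), with no overlap, and differed by 0.32 ± 0.06 (SE, 1.25-fold, limma adjusted p = 0.126). Of the 7 beta ring genes, 6 lay higher at late passage (85.7%, against 57.5% of all genes), though they differed in size and between pairs. Psmb3 and Psmb6 were higher at late passage in 4 of 4 pairs by 0.20 ± 0.09 and 0.17 ± 0.07. Psmb4 differed by 0.17 ± 0.14, with 2 of 4 pairs higher. Psmb5 and Psmb7 stood at 0.01 ± 0.18 and 0.05 ± 0.15, and Psmb2 at -0.13 ± 0.13. Of the alpha ring genes, 3 lay higher and 4 lower at late passage, from 0.11 for Psma1 to -0.22 for Psma3.

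The core chaperone genes Psmg1 to Psmg4 all lay higher at late passage, by 0.26 ± 0.07, 0.16 ± 0.11, 0.27 ± 0.08 and 0.25 ± 0.06 (SE). Psmg4 stood at 0.16 and 0.21 in late Smurf2-/- mixed BL and C57B6 and at 0.07 and 0.06 in late wild-type mixed BL and C57B6, against -0.06, -0.10, -0.12 and -0.23 in the early arrays in the same order. Late and early arrays did not overlap, which held for 2 of the 46 genes (Psmb1 and Psmg4) and for 10% of all genes. The limma adjusted p was 0.137 for Psmg4, 0.184 for Psmg1 and 0.196 for Psmg3. The cap chaperone genes did not share this direction, with Psmd5, Psmd9 and Psmd10 at 0.01 ± 0.09, -0.10 ± 0.13 and -0.24 ± 0.16.

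In the cap 14 of 17 genes lay lower at late passage, none called. The base scaffold gene Psmd2 differed by -0.21 ± 0.10 (SE), with an exception in Smurf2-/- C57B6 at 0.04, and the ATPase gene Psmc2 was higher at late passage in 4 of 4 pairs by 0.16 ± 0.11. Psmd6, a lid gene, had a pattern of its own. It stood at -0.66 and -0.60 in late Smurf2-/- and wild-type mixed BL, against 0.17 and -0.29 in early Smurf2-/- and wild-type mixed BL, while the 4 C57B6 arrays lay between -0.00 and 0.01. Psmd12, Psmd14 and Psmd4 differed by -0.15 ± 0.11, -0.15 ± 0.15 and 0.08 ± 0.09.

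The activators parted from each other. Psme1 stood at 0.36 and 0.39 in late Smurf2-/- mixed BL and C57B6 and at 0.17 and -0.09 in late wild-type mixed BL and C57B6, against -0.20, -0.11, -0.24 and 0.09 in the early arrays in the same order. It was higher at late passage in 3 of 4 pairs, the wild-type C57B6 pair being the exception, with a difference of 0.33 ± 0.13 (SE, limma adjusted p = 0.284). Its partner Psme2 differed by 0.13 ± 0.11 with the same exception. Psme3 and Psme4 differed by -0.02 ± 0.07 and -0.09 ± 0.10.

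Within Smurf2-/- cells limma called 0 of the 46 genes for passage (0% of all genes). It found 7 at an unadjusted p under 0.05, all higher at late passage (15.2%, close to the 14.8% of all genes). They were Psme1 at 0.54 ± 0.15 (SE), Psmb1 at 0.31 ± 0.10, Psme2 at 0.31 ± 0.12, Psmg1 at 0.30 ± 0.11, Psmg2 at 0.34 ± 0.12, Psmg4 at 0.27 ± 0.09 and Psmc3ip at 0.41 ± 0.12. Within wild-type cells it also called 0 (0% of all genes) and found 3 (6.52%, against 7.25% of all genes): Psmb1 at 0.33 ± 0.10 and Psmg4 at 0.24 ± 0.09, higher at late passage, and Psmd11 at -0.25 ± 0.08, lower. The comparisons within Smurf2-/- and within wild-type use different arrays, and their difference is the interaction given above, which called none.

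**Figure D3:**
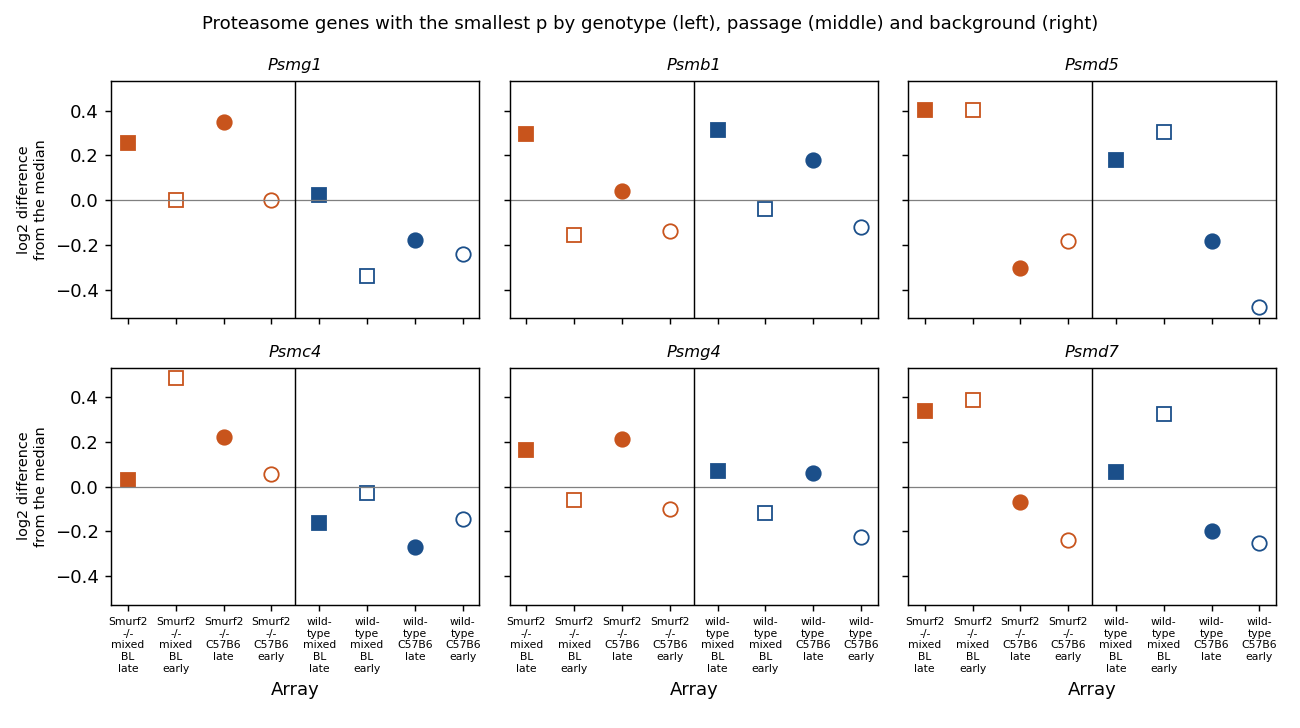
Level in each array (log2 difference from the gene's median, circles for C57B6, squares for mixed BL, filled for late and open for early passage, orange for Smurf2-/- and blue for wild-type) of the pair of proteasome genes with the smallest p for genotype (left), passage (middle) and background (right). Psmc4 separates the genotypes, Psmb1 and Psmg4 the passage classes, and Psmd5 and Psmd7 the backgrounds, while Psmg1 overlaps between genotypes; no gene passed the test.

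Mixed BL arrays were compared with C57B6 arrays over both genotypes and passage classes. Background gave the widest single differences among the proteasome genes, led by the cap chaperone gene Psmd5 and the lid gene Psmd7. Limma called 0 of the 46, where it called 0.08% of all genes. It found 11 of them (23.9%) at an unadjusted p under 0.05, all higher in mixed BL, against 13.5% of all genes. A total of 40 of 46 lay higher in mixed BL (87.0%, against 51.7% of all genes), with a median of 0.14, against 0.00 for all genes. The median was -0.04 in the late Smurf2-/- pair, 0.24 in the early Smurf2-/- pair, and 0.21 and 0.19 in the late and early wild-type pairs.

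Psmd5 stood at 0.40 and 0.40 in late and early Smurf2-/- mixed BL and at 0.18 and 0.31 in late and early wild-type mixed BL, against -0.30, -0.18, -0.18 and -0.48 in the C57B6 arrays in the same order. Every mixed BL array was above every C57B6 array, and the difference was 0.61 ± 0.09 (SE, 1.53-fold, limma adjusted p = 0.110). Psmd7, whose product pairs with that of Psmd14 in the lid, averaged 0.28 ± 0.14 in mixed BL and -0.19 ± 0.08 in C57B6 (SD, n = 4 each), a difference of 0.47 ± 0.08 (SE, 1.38-fold, adjusted p = 0.140). Its values were 0.34, 0.39, 0.07 and 0.33 in mixed BL Smurf2-/- late and early and wild-type late and early, against -0.07, -0.24, -0.20 and -0.25 in the C57B6 arrays in the same order. Psme3 also did not overlap, at 0.31 ± 0.07 (SE, adjusted p = 0.192). Groups without overlap held for these 3 of the 46 genes and for 5.91% of all genes. The mixed BL cells came from several embryos and the C57B6 cells from 1, and the part of this in the differences was not tested.

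All 14 core particle genes lay higher in mixed BL, none called. Psmb5 differed by 0.46 ± 0.18 (SE), Psma7 by 0.40 ± 0.14, Psmb2 by 0.35 ± 0.13, Psmb3 by 0.28 ± 0.09 and Psma2 by 0.23 ± 0.08, while the catalytic genes Psmb6 and Psmb7 differed by 0.08 ± 0.07 and 0.14 ± 0.15. In the cap 15 of 17 lay higher, with the lid genes Psmd11 and Psmd12 at 0.29 ± 0.08 and 0.30 ± 0.11, the ATPase genes Psmc2 and Psmc6 at 0.27 ± 0.11 and 0.23 ± 0.10, Psmd14 at 0.22 ± 0.15 and Psmd4 at 0.04 ± 0.09. Psmd6 lay lower in mixed BL in 3 of 4 pairs (-0.35 ± 0.15) and Psmd8 differed by -0.07 ± 0.11. The core chaperone genes Psmg1, Psmg3 and Psmg4 were close to level at 0.00 ± 0.07, 0.05 ± 0.08 and 0.03 ± 0.06, with Psmg2 at 0.22 ± 0.11. The cap chaperone genes Psmd9 and Psmd10 differed by 0.14 ± 0.13 and 0.37 ± 0.16. Psme1, Psme2 and Psme4 differed by -0.05 ± 0.13, 0.22 ± 0.11 and -0.00 ± 0.10. Psma8, Psmb11 and Psmc3ip differed by 0.13 ± 0.07, -0.03 ± 0.07 and -0.01 ± 0.09.

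The parts of the proteasome were set side by side as the mean over their genes in each array, with no test because the genes were chosen with earlier results known. The core particle mean was 0.09, 0.21, 0.14 and -0.13 in Smurf2-/- mixed BL late and early and C57B6 late and early, against 0.03, 0.06, -0.22 and -0.26 in the wild-type arrays in the same order. The cap mean was 0.03, 0.25, 0.08 and -0.05 in the same Smurf2-/- arrays, against -0.05, 0.11, -0.15 and -0.12 in wild-type. The cap minus the core lay between -0.07 and 0.14. Centring each gene on its median by itself brings such means near 0, and the gap between other gene sets was not measured. The cap was below the core in late mixed BL of both genotypes and in late Smurf2-/- C57B6, and above it in the other 5 arrays.

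The activators ranged more widely around the core than the cap did, but their mean covers 4 genes and the cap mean 17. A mean over fewer genes can scatter more for that reason alone. The activator mean was 0.23, -0.02, 0.12 and -0.03 in Smurf2-/- mixed BL late and early and C57B6 late and early, against 0.13, -0.00, -0.21 and -0.02 in the wild-type arrays in the same order. Relative to the core this was -0.23 in early Smurf2-/- mixed BL and 0.24 in early wild-type C57B6, the ends of its range. The 7 assembly factors together kept within 0.14 of the core in every array. Their core chaperones alone, Psmg1 to Psmg4, stood at -0.23 and -0.22 relative to the core in early Smurf2-/- and wild-type mixed BL and 0.05 to 0.18 above it in the other 6 arrays.

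**Figure D4:**
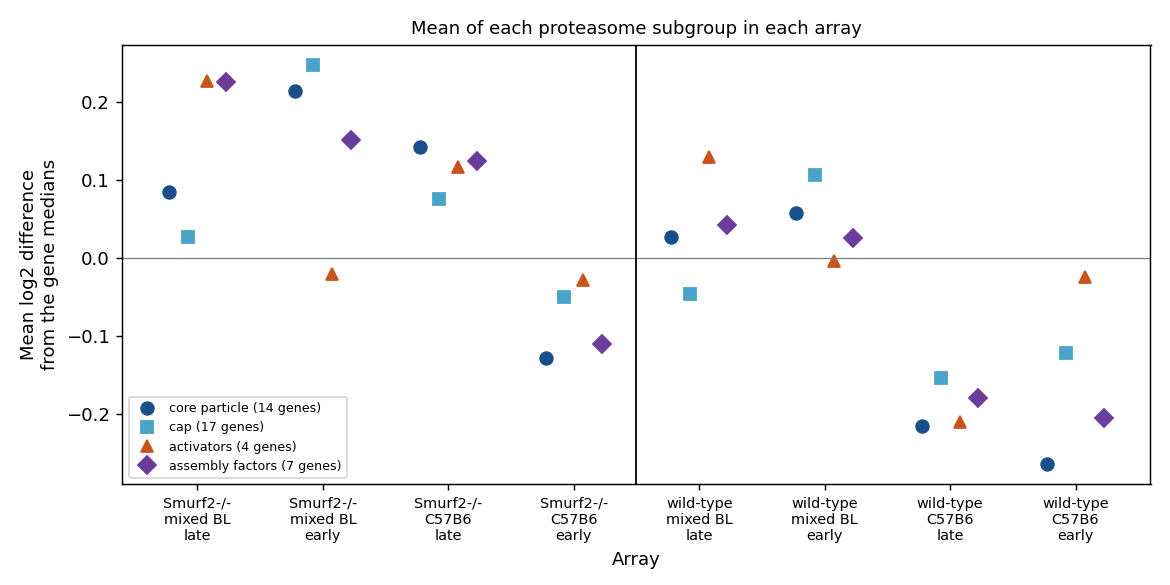
Mean level of the core particle, cap, activator and assembly factor genes in each array, as the mean log2 difference from the gene medians; the vertical line separates Smurf2-/- arrays (left) from wild-type arrays (right). Core and cap points lie within 0.14 of each other in every array, and the activator point departs most from the core in early Smurf2-/- mixed BL (-0.23) and early wild-type C57B6 (0.24).

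Over genotype pairs, the core particle mean differed by 0.18 ± 0.13, the cap by 0.13 ± 0.07, the activators by 0.10 ± 0.16 and the assembly factors by 0.18 ± 0.09 (SD over 4 pairs). All 4 pairs were positive for the core, the cap and the assembly factors, and 2 of 4 for the activators. Over passage pairs the differences were 0.04 ± 0.17, -0.07 ± 0.15, 0.09 ± 0.19 and 0.09 ± 0.10 in the same order, so that none but the last had the same sign in 4 of 4 pairs. Over background pairs they were 0.21 ± 0.18, 0.15 ± 0.15, 0.12 ± 0.15 and 0.20 ± 0.07, with 4 of 4 pairs positive for activators and assembly factors and 3 of 4 for core and cap.

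Genes that work with the proteasome were read in the same fits, and limma called none of those named here. The immunoproteasome genes Psmb8, Psmb9 and Psmb10, whose products replace the standard cutting subunits after interferon, differed by -0.01 ± 0.12, 0.07 ± 0.10 and 0.01 ± 0.15 (SE) for genotype and by 0.01 ± 0.12, 0.16 ± 0.10 and 0.06 ± 0.15 for passage. For background they differed by 0.19 ± 0.12, 0.07 ± 0.10 and 0.05 ± 0.15. Pomp, the chaperone that matures the core, differed by 0.04 ± 0.16, -0.20 ± 0.16 and 0.24 ± 0.16 for genotype, passage and background. The transcription factor gene Nfe2l1, whose product raises proteasome genes when the proteasome is inhibited, differed by -0.08 ± 0.19, -0.40 ± 0.19 and 0.38 ± 0.19, and the antioxidant factor gene Nfe2l2 by -0.09 ± 0.14, 0.15 ± 0.14 and -0.51 ± 0.14.

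By the smallest p, the partners for genotype were Ubqln4 and Ubqln1, which carry ubiquitinated proteins to the proteasome, at 0.32 ± 0.09 and 0.23 ± 0.08 (SE), and the proteasome-bound deubiquitinase gene Usp14 at 0.42 ± 0.12, each higher in Smurf2-/- in 4 of 4 pairs. For passage they were Ufd1 and Nploc4, cofactors of the p97 unfoldase, at -0.58 ± 0.11 and -0.34 ± 0.07, and the ubiquitin-activating enzyme gene Uba6 at -0.50 ± 0.16, each lower at late passage in 4 of 4 pairs. For background they were Akirin2, which brings proteasomes into the nucleus, at 0.29 ± 0.07, the shuttle gene Rad23b at 0.41 ± 0.10 and Nploc4 at 0.30 ± 0.07, each higher in mixed BL in 4 of 4 pairs. The lowest limma adjusted p among these was 0.123, for Ufd1 with passage. At late passage alone, Uchl5, Usp14 and Ubqln4 lay higher in Smurf2-/- by 1.10 ± 0.24, 0.62 ± 0.14 and 0.49 ± 0.10 (limma adjusted p of 0.186, 0.198 and 0.161). Uchl5 stood at 0.51 and 0.56 in late Smurf2-/- mixed BL and C57B6, against -0.29 and -0.84 in the late wild-type arrays. Its interaction of genotype and passage was 1.05 ± 0.33 (limma adjusted p = 0.846). Those of Rad23b and Ubqln4 were 0.40 ± 0.13 and 0.34 ± 0.14. Adrm1 was not analysed here.

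Other gene groups were measured beside the proteasome. Of 20 cell cycle genes 19 were measured, and all 19 lay higher in Smurf2-/-, none called, with pair medians of 0.54 and 0.13 in late and early mixed BL and 1.25 and 0.11 in late and early C57B6. Their median was 1.17 in the late Smurf2-/- C57B6 array, where the proteasome genotype difference was also the largest of the 4 pairs. In early Smurf2-/- mixed BL, which held the highest value of 23 of the 46 genes, it was 0.03. Of 20 interferon-induced genes 14 were measured, with medians of 0.54 and -0.07 in late and early Smurf2-/- mixed BL, -0.26 and 0.38 in late and early Smurf2-/- C57B6, -0.05 and -0.20 in late and early wild-type mixed BL, and -0.25 and 0.68 in late and early wild-type C57B6. Psme1 and Psme2 were both lower at late than at early passage in wild-type C57B6, and higher at late passage in mixed BL of both genotypes, as were these medians. In Smurf2-/- C57B6 Psme1 and Psme2 were higher at late passage and the interferon median lower. Over all 4 passage pairs, 11 of the 14 interferon-induced genes lay lower at late passage and 3 higher, none called, with a median of -0.29. Psme1 and Psme2 lay higher there, by 0.33 and 0.13. Averaged over the pairs, the 12 fibroblast markers all lay lower at late passage, none called, with a median of -0.47. Only 2 of the 12 were lower in all 4 pairs. The pair medians were -0.12 and -0.58 in Smurf2-/- and wild-type mixed BL, and -0.81 and -0.00 in Smurf2-/- and wild-type C57B6. The genotype and background medians of these markers were -0.06 and 0.23. The part of proliferation, interferon signalling and culture state in the proteasome values was not tested.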

How the data were processed

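RNA of 8 MEF cultures was biotin-labelled and hybridised, per the labels' protocols. The authors deposited values, taken here as log2, from which the median of each transcript cluster had been subtracted (largest row median left, 5e-07). The log2 scale was inferred. In 96.8% of the clusters every value was a multiple of the rounding step for numbers 4 to 8, a size that log2 intensities have (tolerance 6e-08). The step reflects the size of the numbers before centring and cannot settle the base of the logarithm, on which the fold changes rest. The array normalisation is not given in the sources used here, and dim clusters could not be filtered. The series text names an exon array, while the identifiers fit a gene-level array, whose annotation was used for names, with symbols updated through a RefSeq table (GRCm38.p6). Of 24169 clusters, 19134 had 1 symbol, naming 17501 genes, each taken as the mean of its clusters. A cluster shared by several symbols was not used.

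All genes were tested with limma 3.58.1 in R 4.3.3 (additive model of genotype, background and passage class, with 4 residual degrees of freedom, or with the interaction of genotype and passage, with 3), with Benjamini-Hochberg adjustment over all genes and a threshold of 0.05. The number of arrays limits the precision. The title numbers are the passage classes, so the additive model holds that pairing. The fit was tested on simulated data. Named were the catalytic, activator, assembly, ubiquitin receptor, deubiquitinase and tissue-specific genes and Psmc3ip, and per comparison the 2 genes with the smallest p in each ring, base and lid, and the 3 among related genes, besides the immunoproteasome, Pomp, Nfe2l1 and Nfe2l2. The members, lists and motifs were chosen with earlier results of these data known. Other settings tried were quantile normalisation, centring of arrays, other prior variances, other model terms, single clusters, no X and Y genes, other subgroup definitions and leaving out each array.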

Additional observations from a re-analysis of the deposited data

Results flagged for a closer look

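A single array stood far from the other 3 of its group in 9 of 276 checks of a gene in the arrays of 1 genotype, passage class or background, by Dixon's ratio; chance alone gives about 1 in 20, and 0 of 24 subgroup means did so. Among late arrays, late wild-type C57B6 stood apart for Psma4 at -0.28 (the others between -0.01 and 0.02), for Psmb3 at -0.37 (0.14 to 0.20) and for Psmb11 at 0.14 (-0.01 to 0.00). The same value of Psma4, -0.28, stood apart among wild-type arrays (the others between -0.00 and 0.04). Late wild-type mixed BL stood apart for Psmb7 at -0.37 among late arrays (-0.03 to 0.03) and for Psmc6 at -0.052 among mixed BL arrays (0.21 to 0.23). Early Smurf2-/- mixed BL stood apart among early arrays for Psma1 at 0.18 (-0.08 to -0.04) and for Psmc1 at 0.29 (-0.04 to -0.02). Late Smurf2-/- C57B6 stood apart for Psma1 at 0.22 among C57B6 arrays (-0.08 to -0.03).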

How the results depend on the processing

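No setting called a proteasome gene in any of the 8 comparisons, and the smallest limma adjusted p of a named gene over all settings was 0.0645. The sign turned under at least 1 setting for 35 of 161 combinations of a named gene and a comparison, none of them called. Of 258 recalculated medians and subgroup differences, 17 moved by more than the spread between pairs. The median genotype difference at early passage was 0.1238 after quantile normalisation, 0.1030 with each array centred, 0.1094 without X and Y genes, 0.1133 with single clusters, and 0.0342 to 0.1881 when single arrays were left out. The median passage difference in wild-type was -0.0297 with each array centred, -0.0260 with single clusters, and -0.0740 to 0.0052 when single arrays were left out. Left-out arrays gave -0.0188 to 0.2010 for the interaction, 0.0896 to 0.1974 for genotype, -0.0336 to 0.0376 for passage and 0.1124 to 0.1999 for background. With Psmg genes alone as assembly factors, their mean differed by 0.2345 for passage and 0.0755 for background, and all 7 assembly factors gave 0.1658 to 0.2764 for background without single arrays. Without the replicate block, genotype called 4 genes and background 14, none of them proteasome genes, against 5 and 14 with it. Over all genes the calls for genotype were 5 and 0 to 3 in other settings with all arrays besides the block, and for passage 3, with 25 under a mean-variance trend and 0 under robust variance, array centring or all interactions. For background they were 14, with 28 under a trend, 1 after quantile normalisation or with all interactions, 5 under robust variance, 7 with arrays centred, 8 without X and Y genes, and 1 to 21 without single arrays. The causes were not tested. The values give no signal over background, so which genes are near the detection limit is not known.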
